A study of Caenorhabditis elegans with 23 samples.

Results

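The major sperm protein (msp) genes of Caenorhabditis elegans were taken as the gene rows named msp- followed by a number and nothing else. There were 28 such genes among 31753 rows. A further 2 rows merge an msp gene with a neighbour (aagr-2/msp-31 and srb-13/msp-45) and were left out of the family. RNA 3′ ends were read by PAT-seq, which extends and reads into the poly(A) tail, so that each gene has a read count, a count of reads with a tail, and a mean tail length in nucleotides (nt). The study held 23 libraries in 10 groups. In run 1 these were young adult whole worms of 3 kinds, with 3 libraries each, grown on E. coli OP50: worms carrying the gld-2 allele q497, strain YM19 carrying the cpb-3 allele bt17, and the wild type N2. In run 2 they were young adult gld-2(q497) worms fed E. coli HT115 making double-stranded RNA against ccf-1, ccr-4, caf-1, panl-2 and parn-1, or a non-targeting control RNAi (pcb19), and N2 embryos of 1 to 2 cells, with 2 libraries each. All RNAi groups, the control included, therefore carry the gld-2 mutation, and run 2 as analysed here has no N2 adults. A protocol text speaks of N2 worms on RNAi, but the sample labels give gld-2 and were followed.

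MSP is the main protein of nematode sperm. It polymerises into the filaments that push the crawling, amoeboid sperm forward, and it is also released from sperm as the signal that starts oocyte maturation and contraction of the gonadal sheath. The genes are transcribed while sperm form in the germline, which in hermaphrodites happens before the switch to oocytes. GLD-2 is a cytoplasmic poly(A) polymerase of the germline, and CPB-3 belongs to the CPEB family of RNA-binding proteins that act on tails of germline mRNAs.

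The family lies in clusters. On chromosome II (ce10, 4785893 to 5810310) there were 11 members, and on chromosome IV 17 members, of which 8 lay at 5055623 to 5316898 and 9 at 9688998 to 10143718. The deposited intervals of 26 members were 384 bases long, those of msp-74 234 bases and those of msp-32 573 bases. All are multiples of 3, as coding sequence without UTRs is. All 28 symbols were annotated as protein-coding in RefSeq (WBcel235). The msp genes are known as near-identical copies. The sources used here do not say how reads matching several copies were counted, so a value of a single member is less certain than the family sum.

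Total counts ran from 4.18 to 16.0 M reads per library in run 1 and from 2.2 to 12.5 M in run 2. The library cpb-3 replicate 3 stood apart in run 1. It had the fewest reads, the largest share of ribosomal RNA (34.8%) and the smallest share of reads with a tail (71.3%). Several results that rest on it are therefore also given without it. The gld-2 gene had 4.01 ± 1.07 CPM (read counts scaled to the TMM-adjusted library size) in gld-2 worms, 12.0 ± 1.05 CPM in cpb-3 worms and 11.9 ± 0.654 CPM in N2 worms (SD, n = 3 each). Its group means lay between 2.38 and 5.04 CPM in the RNAi libraries. The cpb-3 gene had 27.97 ± 3.18 CPM in gld-2 worms, 29.3 ± 4.26 CPM in cpb-3 worms and 53.96 ± 3.43 CPM in N2 worms (SD, n = 3 each). Where the alleles lie relative to the counted 3′ ends was not tested. The labels do not state that the libraries of a group were made from separate cultures, so the p-values rest on a spread that may be technical.

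The msp mRNAs were far more abundant in both mutants than in the wild type. Summed over the 28 members, msp reads came to 3969, 3348 and 3273 CPM in the gld-2 libraries, to 1016, 1483 and 1871 CPM in the cpb-3 libraries, and to 93.0, 142 and 115 CPM in the N2 libraries. The 3 groups did not overlap, with gld-2 highest and N2 lowest. The means were 3530 ± 382 CPM in gld-2 worms, 1457 ± 428 CPM in cpb-3 worms and 117 ± 24.5 CPM in N2 worms (SD, n = 3 each). The gld-2 mean was 30.3-fold the N2 mean, and the cpb-3 mean 12.5-fold. On the log2 scale the cpb-3 ratio to N2 was 3.64, and 3.42 without cpb-3 replicate 3. In raw reads the family held 21171 to 66663 reads in a gld-2 library, 4471 to 20415 in a cpb-3 library and 819 to 1552 in an N2 library, so among run 1 adults the counting error of a single member was largest in N2. In whole worms, fewer cells of a type and less RNA per cell cannot be told apart, and the same holds for more.

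**Figure D1:**
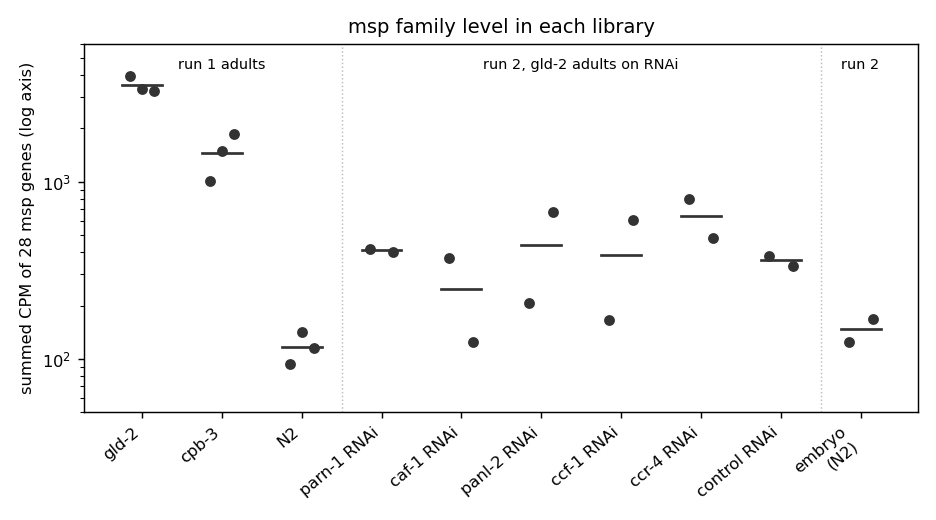
Summed CPM of the 28 msp genes in each of the 23 libraries on a log axis, with 1 point per library and the group mean as a line; dotted lines part run 1 adults, run 2 RNAi adults and run 2 embryos. The gld-2 libraries of run 1 lie at 3273 to 3969 CPM, the N2 libraries at 93.0 to 142 CPM, and the RNAi libraries of run 2 between 125 and 800 CPM.

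The question of the first comparison was which members took part in the higher level in gld-2 worms. Of the 28 members, 26 had enough reads for the test, and 24 of these rose in gld-2 against N2 (edgeR, adjusted p under 0.05), while 0 fell. At an unadjusted p under 0.05 there were 25, and DESeq2 called 25, all higher. Among all 10357 rows tested, 13.5% rose and 14.9% fell. The median log2 change was 4.77 over the 26 members and -0.00 over all rows.

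The most abundant member was msp-59 (chromosome IV, 5312720 to 5313103), with 337, 345 and 370 CPM in gld-2 libraries against 7.60, 9.94 and 8.91 CPM in N2 libraries. Its log2 change was 5.33 ± 0.22 (SE; edgeR adjusted p = 3.05e-10). For msp-76 (IV, 9688998 to 9689381) the values were 287, 272 and 263 CPM in gld-2 worms, against 8.06, 11.7 and 11.0 CPM in N2 worms, a log2 change of 4.75 ± 0.23. In neither gene did a mutant library come near the highest wild-type library.

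The largest change of any member was that of msp-57 (IV, 5062570 to 5062953), whose CPM were 328, 272 and 265 in gld-2 libraries and 2.38, 4.35 and 5.19 in N2 libraries (log2 change 6.17 ± 0.35, edgeR adjusted p = 4.14e-09). At a similar level, msp-56 (IV, 9841520 to 9841903) had 281, 276 and 299 CPM in gld-2 worms and 5.45, 9.01 and 7.72 CPM in N2 worms, a log2 change of 5.28 ± 0.28. The msp-40 gene (II, 4825409 to 4825792) reached 235, 187 and 187 CPM in gld-2 worms, against 4.99, 7.35 and 5.71 CPM in N2 worms, and msp-81 (IV, 9836014 to 9836397) reached 225, 201 and 190 CPM, against 8.40, 13.7 and 8.76 CPM. All 6 genes thus had every gld-2 library above every N2 library. In raw reads, N2 libraries held a median of 39.5 reads a member.

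A few members were nearly silent or changed little. For msp-63 the counts were at the limit of detection, with 0.298, 0.204 and 0 CPM in gld-2 libraries and 0.114, 0.518 and 0.0742 CPM in N2 libraries, and its log2 change of -0.11 ± 0.95 did not pass the test. The sign of that value depended on single libraries: it was 1.07 without N2 replicate 2 and 0.17 without gld-2 replicate 3. The msp-38 gene had 6.85, 2.92 and 5.87 CPM in gld-2 worms and 2.61, 2.59 and 2.00 CPM in N2 worms. The groups did not overlap, but the log2 change of 1.14 ± 0.43 missed the threshold (edgeR adjusted p = 0.063). It passed with DESeq2 (adjusted p = 0.028), with no filter on low counts (0.0015) and without gld-2 replicate 2 (0.027). The msp-10 gene rose by 1.94 ± 0.39 on the log2 scale (edgeR adjusted p = 0.0013), the smallest of the 24 called changes, with 19.8, 9.03 and 12.8 CPM in gld-2 worms against 1.93, 5.38 and 3.64 CPM in N2 worms.

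The 2 members that were not tested had almost no reads. Those of msp-32 numbered 2, 2 and 1 in the gld-2 libraries and 0 in every cpb-3 and N2 library. Those of msp-74 numbered 5, 3 and 6 in gld-2 libraries, 0, 1 and 0 in cpb-3 libraries and 0 in each N2 library. A count of 0 allows up to 3 reads, or 0.223 to 0.341 CPM in an N2 library; this covers counting error only. Both intervals are also the ones whose length differs from the rest of the family.

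In cpb-3 worms the rise was smaller in the median. The 26 tested members rose against N2 (edgeR, adjusted p under 0.05), while 7.09% of all rows rose and 1.69% fell. One of them, msp-63, had 7 reads over the N2 libraries against 56 over the cpb-3 libraries and passed the count filter through cpb-3. With a filter on N2 counts alone 25 members were tested and 25 rose. The median log2 change was 3.66 over the members and -0.02 over all rows, and the values lay between 2.93 (msp-50) and 4.35 (msp-57). The same N2 libraries serve both comparisons, so the changes in both mutants are not independent. Without cpb-3 replicate 3 all 26 members still rose.

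The smallest of these changes was that of msp-50, with 20.1, 23.8 and 19.2 CPM in cpb-3 libraries, against 1.93, 4.14 and 2.30 CPM in N2 libraries (log2 change 2.93 ± 0.28, edgeR adjusted p = 5.39e-06). The largest, that of msp-57, came from 53.9, 71.4 and 124 CPM in cpb-3 worms. Among the most abundant members, msp-76 had 92.6, 139 and 149 CPM in cpb-3 worms (log2 change against N2 3.63 ± 0.22), msp-59 had 58.5, 80.7 and 90.8 CPM, and msp-81 had 62.6, 124 and 128 CPM. For msp-56 the cpb-3 libraries gave 41.2, 81.6 and 77.0 CPM and for msp-40 they gave 62.9, 100 and 190 CPM. Every one of these libraries lay above the 3 N2 libraries of the same gene, but the share of all rows separated in this way was not counted.

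**Figure D2:**
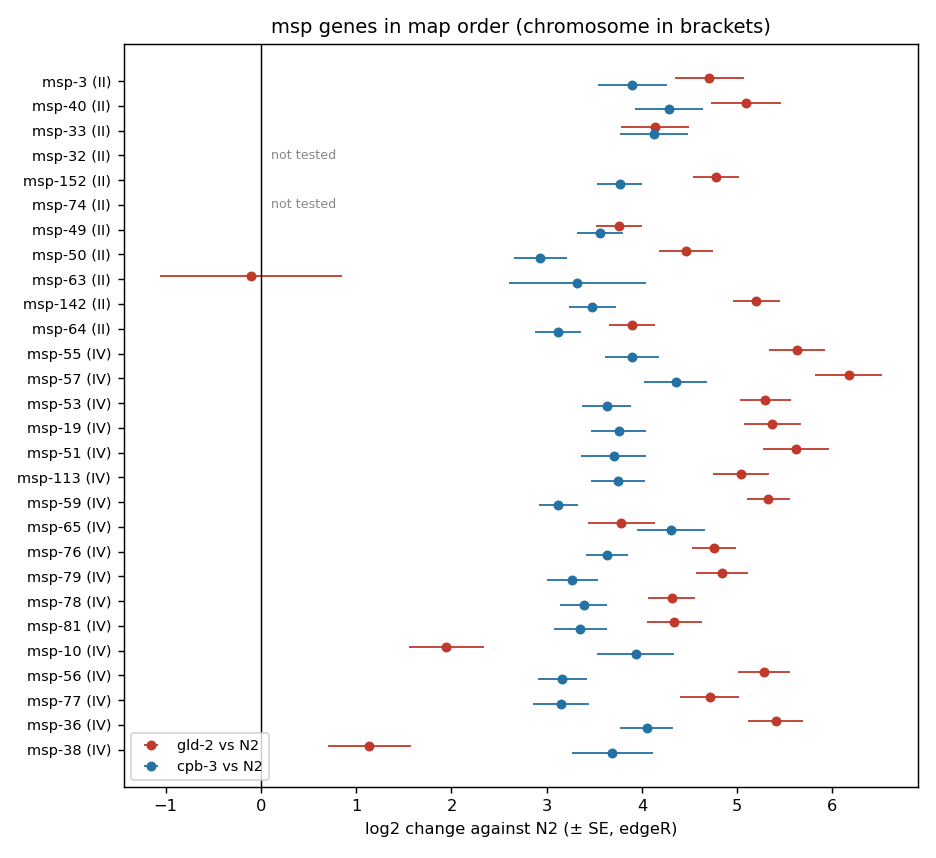
Log2 change (x axis, with SE from edgeR) of each msp gene in gld-2 against N2 and in cpb-3 against N2, in map order with the chromosome in brackets; msp-32 and msp-74 were not tested. The cpb-3 changes lie in a narrow band between 2.93 and 4.35, while the gld-2 changes run from -0.11 (msp-63) to 6.17 (msp-57).

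The 2 mutants were then set against each other. In gld-2 worms 20 of the 26 tested members were higher than in cpb-3 worms and 3 were lower, or 2 without msp-63 (edgeR, adjusted p under 0.05), while 17.0% of all rows were higher and 19.4% lower. The median log2 difference was 1.21 over the members and 0.01 over all rows. The largest differences upward were those of msp-59 (2.21 ± 0.19) and msp-56 (2.12 ± 0.24). For msp-65, msp-33 and msp-49 the groups overlapped, and log2 differences of -0.52 ± 0.28, 0.02 ± 0.29 and 0.20 ± 0.20 did not pass the test. The groups also overlapped for msp-40, whose call (log2 difference 0.80 ± 0.30, edgeR adjusted p = 0.049) was lost when any single library other than cpb-3 replicate 3 was left out. Without cpb-3 replicate 3 the counts were again 20 higher and 3 lower.

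The 3 members that went the other way were msp-38, msp-10 and, on few reads, msp-63. The gld-2 libraries had 19.8, 9.03 and 12.8 CPM of msp-10, less than the 32.9, 58.4 and 78.7 CPM of the cpb-3 libraries (log2 difference -1.99 ± 0.36, edgeR adjusted p = 0.00058). For msp-38 the log2 difference was -2.55 ± 0.39 (edgeR adjusted p = 0.00015), with 6.85, 2.92 and 5.87 CPM in gld-2 worms and 15.8, 28.9 and 50.2 CPM in cpb-3 worms. The msp-63 gene had 0.298, 0.204 and 0 CPM in gld-2 libraries, 8 reads in all, and 1.51, 2.40 and 3.77 CPM in cpb-3 libraries, 56 reads in all (log2 difference -3.43 ± 0.71). It entered the test through the cpb-3 libraries, so its difference is a description. In none of the 3 genes did the groups overlap, but the genes were picked by their difference in these same libraries. Against N2, the log2 difference of msp-63 in cpb-3 worms was 3.32 ± 0.72, and its call was lost without N2 replicate 3 (edgeR adjusted p = 0.065).

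These 3 genes are not neighbours: msp-63 lies on chromosome II at 5797045 to 5797428, msp-10 on chromosome IV at 9837629 to 9838012 and msp-38 at 10143335 to 10143718 on the same chromosome. The neighbours of msp-63 and msp-10 were higher in gld-2 worms. The msp-142 gene starts 478 bases from msp-63 on the other strand, and had 57.3, 81.2 and 73.3 CPM in gld-2 worms against 21.95, 22.1 and 20.5 CPM in cpb-3 worms (log2 difference 1.72 ± 0.20). Between msp-81 and msp-10 there were 1231 bases, and msp-81 was higher in gld-2 worms by 0.98 ± 0.25. On the other side, 3507 bases away and on the strand of msp-10, lay msp-56 with its difference of 2.12.

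Together msp-63, msp-38 and msp-10 made up 0.680, 0.363 and 0.572% of msp reads in gld-2 libraries, 4.94, 6.04 and 7.09% in cpb-3 libraries, and 5.01, 5.99 and 4.96% in N2 libraries. The genes were chosen for their difference in run 1, so these shares are a description. In the 12 RNAi libraries of run 2, which are also gld-2 mutants and were not used to choose them, the share was 0.131 to 2.77%, below each N2 adult library of run 1. The N2 embryo libraries of run 2 had 1.55 and 3.90%, also below each N2 adult library of run 1. Run 2 has no N2 adults, so run and genotype cannot be told apart in this comparison.

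**Figure D3:**
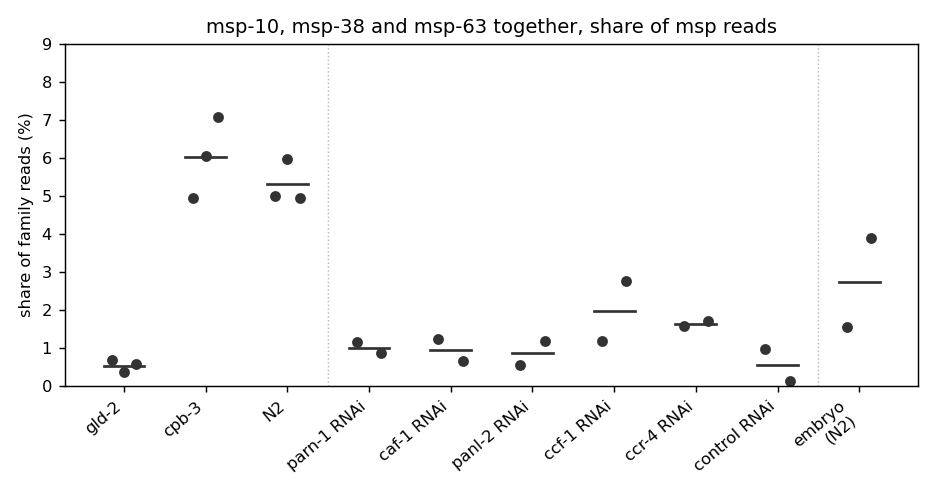
Share of msp reads (y axis, percent) taken by msp-10, msp-38 and msp-63 together in each library, with the group mean as a line. All gld-2 mutant libraries of both runs lie at or under 2.77%, while the cpb-3 and N2 adult libraries, all of run 1, lie between 4.94 and 7.09%. The N2 embryo libraries of run 2 lie at 1.55 and 3.90%.

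By position, the median log2 change in gld-2 against N2 was 4.47 over the 9 tested members of chromosome II and 5.04 over the 17 of chromosome IV. In cpb-3 against N2 the medians were 3.56 and 3.69. Within chromosome IV the 8 members of the left block had changes of 3.78 to 6.17 in gld-2 worms (median 5.35) and the 9 of the right block had changes of 1.14 to 5.40 (median 4.71). The ranges of the blocks overlapped, and the difference between them was not tested.

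Other sperm genes were read beside the family. Over all rows tested, 13.5% rose in gld-2 worms and 7.09% in cpb-3 worms. Of 4 measured genes for sperm motility and MSP-domain proteins, all 4 rose in gld-2 worms and all 4 in cpb-3 worms (median log2 changes 5.13 and 3.15). They include gsp-3 and gsp-4, sperm protein phosphatases, with means of 48.5 and 16.2 CPM in gld-2 worms against 0.354 and 0.612 CPM in N2 worms. These N2 means lie near the 0.223 to 0.341 CPM that a count of 0 allows in an N2 library. Both genes passed the count filter through mutant libraries, so their rise is a description. The MSP-domain gene msd-4 had 156 CPM in gld-2 worms and 3.38 CPM in N2 worms. Of the small sperm gene families (ssp, ssq and nspd), 17 genes were tested, and 14 rose in gld-2 worms and 15 in cpb-3 worms (medians 3.69 and 2.99). Examples, again as means, are nspd-7 with 462 CPM in gld-2 and 13.4 CPM in N2 worms, nspd-1 with 191 and 6.64 CPM, and ssp-16 with 93.8 and 1.15 CPM. Those that rose in gld-2 worms include ssp-33 and ssp-36, with only 0.481 and 0.0937 CPM in N2 worms, which also passed the filter through mutant libraries.

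Of 8 genes listed for the fibrous body and membranous organelle, where MSP is packed while sperm form, 5 had a row and 4 were tested. The 4 did not all move together, as 2 rose in gld-2 worms. These were spe-4, a presenilin-family protein of that organelle (9.92 CPM in gld-2, 0.211 CPM in N2), and spe-5, a subunit of the vacuolar ATPase (5.53 and 2.37 CPM). The other 2 did not pass the edgeR test: wee-1.3 (90.5 and 84.3 CPM) and spe-39 (8.49 and 13.7 CPM, unadjusted p = 0.029). Both had more reads in N2 worms than spe-4 and spe-5, and whether those reads come from forming sperm was not tested. In cpb-3 worms 0 of the 4 passed the edgeR test (1 at an unadjusted p under 0.05), with a median log2 change of 0.12. The gene spe-11, a paternal factor of the embryo, was the only one of 3 measured fertilisation genes with enough reads. It rose in gld-2 worms to 5.56 CPM, against 0.298 CPM in N2 worms. The N2 levels of spe-4 and spe-11 lie at about the limit of a count of 0. Both passed the count filter through mutant libraries, so their rise is a description. Of 8 genes of the choice between sperm and oocyte fate in the germline, 1 rose (fog-1) and 3 fell (fog-3, tra-2 and fem-2) in gld-2 worms. For comparison, 13.5% of all rows rose and 14.9% fell. In cpb-3 worms 0 of the 8 passed by edgeR (2 at an unadjusted p under 0.05).

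On the receiving side, of 10 tested genes of the oocyte and sheath response to MSP, 4 fell in gld-2 worms (oma-2, vab-1, inx-22 and oma-1) and 0 rose. The Eph receptor gene vab-1, whose protein binds MSP, had 24.4 CPM in gld-2 worms against 59.4 CPM in N2 worms (log2 change -1.26, edgeR adjusted p = 4.6e-05). In cpb-3 worms 1 of the 10 rose (oma-2, edgeR adjusted p = 0.049), near the 7.09% of all rows that rose. In gld-2 worms 14.9% of all rows fell.

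Markers of other cells and stages moved as well. Of 12 oocyte markers, 11 fell in gld-2 worms (median log2 change -1.38), and their summed level was 2115 to 2628 CPM in gld-2 libraries against 5369 to 5439 CPM in N2 libraries. In cpb-3 worms 0 of 12 passed by edgeR (6 at an unadjusted p under 0.05), with a sum of 6708 to 7139 CPM. Early zygotic markers summed to 0.595 to 0.883 CPM in gld-2 libraries. They reached 19.2 to 22.5 CPM in cpb-3 libraries and 15.7 to 18.6 CPM in N2 libraries. All 4 tested fell in gld-2 worms, but they passed the count filter through N2 or cpb-3 libraries, so the fall is a description. At 0 in gld-2 worms were 3 of the 7 measured (end-1, med-1 and pes-10). Of 6 intestine markers 0 passed by edgeR in gld-2 worms (0 also at an unadjusted p under 0.05), and 2 yolk protein genes rose in cpb-3 worms (vit-6 and vit-5). Of 5 body wall muscle markers 0 passed in gld-2 worms (0 unadjusted) and 1 rose in cpb-3 worms (mup-2). Of 4 tested moulting genes 2 fell in gld-2 worms (noah-1 and fbn-1), and 0 passed in cpb-3 worms (2 unadjusted). Over all rows tested, 14.9% fell and 13.5% rose in gld-2 worms, and 1.69% fell and 7.09% rose in cpb-3 worms. DESeq2 values were not taken for these lists. The part of these shifts in the msp values was not tested.

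The rows whose levels followed the msp sum most closely over the 23 libraries were srb-13/msp-45 (Pearson r of log2(CPM + 1) = 0.98), ssq-2 (0.97), nspd-3 (0.96), ssq-1 (0.96) and Y69E1A.1 (0.95), out of 3599 rows with at least 20 CPM in the mean of run 1. The libraries fall into groups that differ strongly in the msp sum, and the value is a description. Within the 14 libraries of run 2 alone, r was 0.97, 0.92, 0.92, 0.84 and 0.86 for these rows.

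The poly(A) tails of msp mRNAs were shorter in gld-2 worms. Over all tailed msp reads the mean tail was 24.9, 24.2 and 25.1 nt in gld-2 libraries, 33.1, 33.5 and 22.9 nt in cpb-3 libraries, and 36.2, 37.1 and 34.99 nt in N2 libraries. Every gld-2 library lay below every N2 library, with a difference of the means of -11.3 nt. The cpb-3 libraries also lay below N2, with a difference of -6.28 nt over all 3 and of -2.82 nt without cpb-3 replicate 3, whose value of 22.9 nt was the lowest of run 1. The difference of gld-2 and cpb-3 means was -5.06 nt, and -8.52 nt without that library. Measured from each library's median tail over genes, that difference was -1.33 nt, with all 3 cpb-3 libraries included. By library, the msp tail minus this median was -5.64, -5.68 and -13.1 nt in cpb-3 replicates 1, 2 and 3. In the gld-2 libraries it was -8.24, -8.68 and -11.5 nt, and in the N2 libraries -1.09, 1.36 and -2.95 nt.

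Of 25 members with enough tailed reads, 12 had a shorter tail in gld-2 worms than in the wild type (limma, adjusted p under 0.05) and 0 longer, while 7.98% of all 7958 rows tested were shorter and 0.126% longer. All 25 differences were negative, with a median of -10.04 nt, against -2.22 nt over all rows. Single calls rested on few reads in N2, where a member had 8 to 148 tailed reads in a library. Only 2 to 5 members passed when 1 library was left out: 4 without any 1 of the N2 libraries, and 2, 3 and 5 without gld-2 replicate 1, 2 and 3. Lengths centred on each library's median gave 4 calls.

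The largest difference was that of msp-33, with 22.9, 20.7 and 22.4 nt in gld-2 libraries against 41.4, 49.4 and 45.2 nt in N2 libraries (-23.3 ± 3.38 nt, SE; limma adjusted p = 0.0076). It was followed by msp-50, with 31.5, 31.1 and 34.03 nt in gld-2 and 55.1, 51.6 and 48.0 nt in N2 worms (-19.3 ± 4.48 nt), and by msp-55, with 18.5, 18.5 and 18.9 nt against 32.9, 45.8 and 34.5 nt (-19.1 ± 3.27 nt). The most precise was msp-49, with 29.7, 28.8 and 29.6 nt in gld-2 worms and 44.2, 42.8 and 45.1 nt in N2 worms (-14.7 ± 1.82 nt, limma adjusted p = 0.0048). In each of the 4 genes the wild-type tails were longer in every library. The genes were picked by their tail difference in these same libraries, so this is a description.

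Among the abundant members, the tails of msp-76 were 28.9, 28.9 and 29.7 nt long in gld-2 worms and 40.5, 46.1 and 40.3 nt long in N2 worms (-13.1 ± 3.36 nt, limma adjusted p = 0.045). For msp-56 the mean was 28.2 ± 0.847 nt in gld-2 and 44.5 ± 6.71 nt in N2 worms, and for msp-81 29.6 ± 0.596 nt and 41.04 ± 2.02 nt (SD, n = 3 each), and both passed. The differences of msp-59 (-8.44 ± 2.87 nt), msp-40 (-6.04 ± 2.29 nt) and msp-57 (-5.23 ± 1.90 nt) did not pass. Thus msp-57, the member with the largest change in level, had one of the smaller differences in tail.

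**Figure D4:**
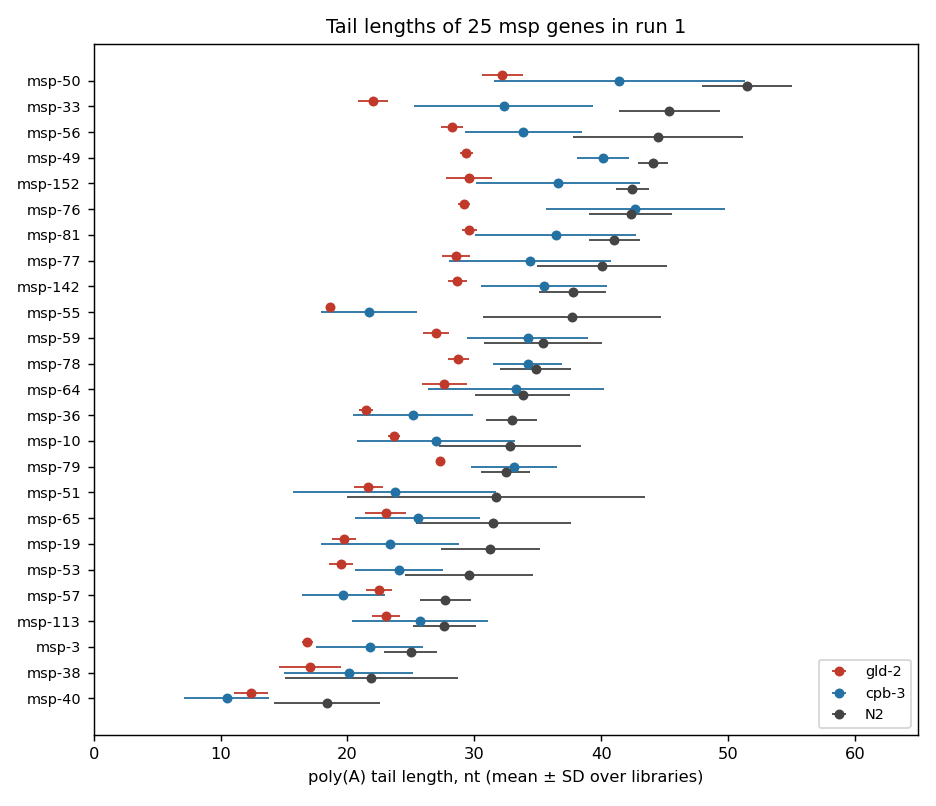
Mean tail length with SD over 3 libraries for the 25 msp genes tested, in gld-2, cpb-3 and N2 worms, ordered by the N2 value. All gld-2 means lie below the N2 means, with differences of -4.59 nt (msp-113) to -23.3 nt (msp-33).

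In cpb-3 against N2 worms 0 of 25 members passed in tail length (limma; 7 had an unadjusted p under 0.05), and 0% of the 7991 rows tested passed in either direction. Differences were negative in 23 members, with a median of -5.70 nt, against 1.08 nt over all rows. Without cpb-3 replicate 3 they were negative in 17 members, with a median of -2.37 nt, against 1.91 nt over all rows. With lengths centred on each library's median, and all 3 cpb-3 libraries included, 25 were negative. The centred median was -6.68 nt over members and 0.01 nt over all rows. For gld-2 against N2 the same centring gave -7.25 nt and 0.58 nt. The largest was that of msp-55, with 22.1, 25.3 and 17.7 nt in cpb-3 libraries, below all 3 N2 libraries, and a difference of -16.01 ± 3.27 nt (limma adjusted p = 0.34). With gld-2 set against cpb-3, 2 of 25 members were shorter in gld-2 worms: msp-76 (29.2 ± 0.475 nt in gld-2, 42.7 ± 7.06 nt in cpb-3, SD, n = 3 each) and msp-49 (29.4 ± 0.482 and 40.1 ± 2.06 nt). Of all rows 14.8% were shorter and 0.299% longer. Without cpb-3 replicate 3 the count was 14 members, and 1 without any other 1 of the libraries compared.

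The members kept different tail lengths within a group. Among members with a tail value in every library of a group, the shortest tails in all 3 kinds of worm were those of msp-40, at 12.4 ± 1.33 nt in gld-2, 10.5 ± 3.35 nt in cpb-3 and 18.4 ± 4.18 nt in N2 worms (SD, n = 3 each). By the same rule, in the 6 groups of run 2 adults it was the shortest in 5 and the second shortest of 22 members in caf-1 RNAi, where msp-3 had 10.3 nt and msp-40 11.5 nt. The longest tails were those of msp-50 in gld-2 (32.2 nt) and N2 worms (51.5 nt) and those of msp-76 in cpb-3 worms (42.7 nt). Over the 25 members measured in all 3 groups, tail lengths correlated between gld-2 and cpb-3 (Pearson r = 0.94), between gld-2 and N2 (0.79) and between cpb-3 and N2 (0.86). Members are not replicates and may share reads, so these are descriptions.

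Other gene lists also held genes with shorter tails. Oocyte markers had a median difference of -10.9 nt in gld-2 against N2 worms, with 10 of 12 shorter by limma, and genes of the response to MSP had -11.2 nt, with 5 of 7 shorter. The small sperm families had -11.1 nt, with 4 of 14 shorter. Over all rows tested, 7.98% were shorter and the median was -2.22 nt. Body wall muscle genes had 0.50 nt, and 0 of 5 passed (0 at an unadjusted p under 0.05).

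The share of msp reads that carried a tail was 85.9, 88.8 and 90.2% in gld-2 libraries, 88.2, 89.2 and 87.9% in cpb-3 libraries, and 92.4, 93.1 and 91.8% in N2 libraries. The mutant libraries thus lay below N2 by a few points. No member passed the test on log odds in any of the 3 comparisons (limma): 0 of 25 in gld-2 against N2, where 8 had an unadjusted p under 0.05, 0 of 25 in cpb-3 against N2 with 3, and 0 of 25 in gld-2 against cpb-3 with 0. Of all rows tested, 0.0371% were lower in the first comparison, 0% passed in the second, and 2.75% were higher and 0.0122% lower in the third. Members differed from each other more than the groups did. Among the 25 members with at least 30 reads in gld-2 worms, the pooled share ran from 54.1% for msp-38 and 70.4% for msp-36 to 97.8% for msp-76, with a median of 88.8%.

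In run 2, the gld-2 worms on control RNAi had far fewer msp reads than the gld-2 worms of run 1. The sums were 383 and 336 CPM in control RNAi libraries against 3969, 3348 and 3273 CPM in gld-2 libraries, a 9.83-fold difference of the means. Of 25 members tested, 24 were lower in the control RNAi group (edgeR, adjusted p under 0.05, median log2 change -3.19). Of all rows 12.1% were lower and 11.6% higher. Among the 25, msp-10 and msp-38 had only 10 and 17 reads on control RNAi, with 0 CPM in the lower library. Both passed the count filter through gld-2 libraries, so their difference is a description. Run, bacteria and RNAi treatment differ together between these groups and cannot be told apart. The share of all reads with a tail was 62.8 and 53.6% in control RNAi libraries and 83.1 to 87.1% in gld-2 libraries, and that of msp reads averaged 72.2 ± 0.672% (SD, n = 2) in control RNAi and 88.3 ± 2.2% (SD, n = 3) in gld-2 libraries. The part of this difference in the msp level was not tested. The small sperm families moved alongside, with 236 and 248 CPM in control RNAi libraries and 1413 to 1769 CPM in gld-2 libraries. Tails were 22.1 and 21.7 nt long in the control RNAi libraries, a little below the 24.2 to 25.1 nt of run 1.

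RNAi gave no called change of msp level. Of the targets, ccf-1 and ccr-4 encode deadenylases of the CCR4-NOT complex, panl-2 a subunit of the PAN deadenylase, and parn-1 a poly(A)-specific ribonuclease. The family summed to 419 and 401 CPM for parn-1, 370 and 125 CPM for caf-1, 207 and 673 CPM for panl-2, 165 and 610 CPM for ccf-1, and 800 and 479 CPM for ccr-4, against 383 and 336 CPM on control RNAi. The 2 libraries of a group differed by 2.96-fold for caf-1, 3.25-fold for panl-2 and 3.69-fold for ccf-1, more than the group means differed from the control. In each of the 5 comparisons 0 of 25 members passed with edgeR and 0 with DESeq2, 0 had an unadjusted p under 0.05, and 0% of 9908 rows passed.

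Among the 5 comparisons, ccr-4 RNAi had the most positive member changes. There all 25 tested changes were positive, and the median log2 change was 0.87, against 0.04 over all rows. For msp-59 the libraries had 73.4 and 39.01 CPM on ccr-4 RNAi, against 33.3 and 25.5 CPM on control RNAi. With caf-1 RNAi 23 of the 25 tested changes were negative (median -0.54), and caf-1 replicate 2, with 125 CPM, was the lowest of the RNAi libraries. None of these differences passed the test.

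Tails in the RNAi groups were 26.2 and 21.7 nt for parn-1, 24.0 and 26.8 nt for caf-1, 31.5 and 17.2 nt for panl-2, 26.5 and 27.7 nt for ccf-1, and 22.4 and 21.8 nt for ccr-4, against 22.1 and 21.7 nt for control RNAi. Both ccf-1 libraries and both caf-1 libraries lay above both controls. For ccf-1, 20 members could be tested and 0 passed with limma (3 had an unadjusted p under 0.05), while 11.4% of all rows were longer and 0.150% shorter. The median difference was 5.28 nt over these members and 5.31 nt over all rows. In the other 4 comparisons 0 of 21 or 22 members passed with limma and 0% of rows did; 3 members had an unadjusted p under 0.05 with caf-1 and 0 with the others.

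**Figure D5:**
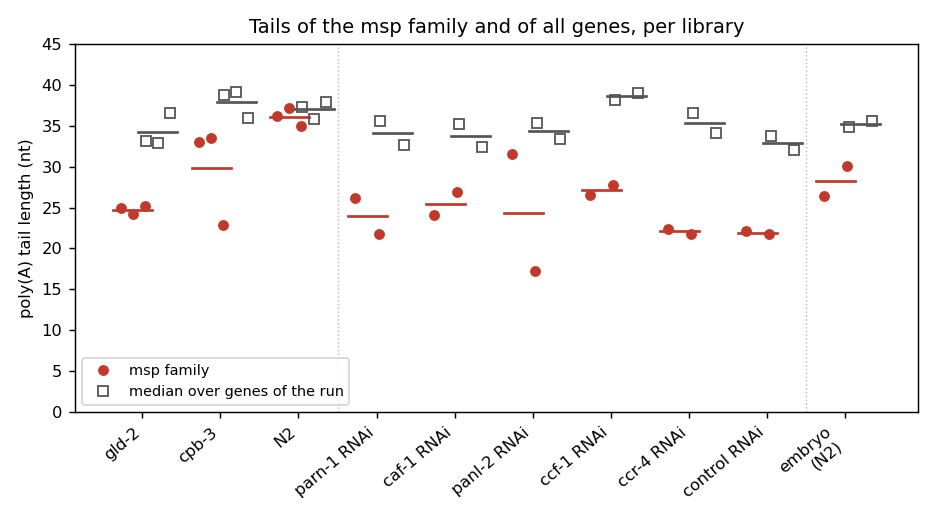
Mean tail length of all tailed msp reads (filled points, line for the group mean) and median tail length over genes of the same library (open squares) in the 10 groups. Relative to the library median, msp tails lie at -8.24 to -11.5 nt in gld-2 worms of run 1 and at -2.95 to 1.36 nt in N2 worms.

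The panl-2 libraries differed most from each other in tails. Replicate 1 had 31.5 nt, 94.9% tailed msp reads and 207 CPM, and replicate 2 had 17.2 nt, 81.4% and 673 CPM. Over all genes 85.1% of reads had a tail in replicate 1 and 61.7% in replicate 2, and ribosomal RNA took 6.01 and 21.3% of reads. The part of these library differences in the msp values was not tested.

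Embryos of 1 to 2 cells held msp reads at about the level of N2 adults. The sums were 125 and 169 CPM in embryos against 93.0, 142 and 115 CPM in N2 adults, and the groups overlapped. The embryo and N2 libraries come from different runs, so stage and run cannot be told apart. Of 25 members tested, 2 were higher in embryos and 0 lower (edgeR, adjusted p under 0.05), while 16.1% of all rows were higher and 18.3% lower. The median log2 change was 0.23 over members and -0.11 over all rows.

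The called members were msp-55, with 12.9 and 8.22 CPM in embryos against 2.497, 2.90 and 2.89 CPM in N2 adults (log2 change 1.93, edgeR adjusted p = 0.0047), and msp-36, with 10.2 and 9.39 CPM against 4.31, 3.11 and 3.79 CPM (1.40, adjusted p = 0.014). Neither overlapped between groups, but both were picked by their call in these same libraries. The call for msp-36 was lost without N2 replicate 2 (0.071) or 3 (0.072), and 8 members were called without embryo replicate 2. The msp tails of embryos were 26.4 and 30.1 nt long, below the 34.99 to 37.1 nt of N2 adults, and 84.3 and 86.4% of msp reads had a tail. These tail values were not tested, and a member had a median of 14.5 tailed reads in an embryo library.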

How the data were processed

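The deposited tables hold, per gene and library, raw read counts, counts of reads with a poly(A) tail, and the mean tail length of those reads (a score in nt in the authors' tables). Per the submitters' processing notes, Bowtie and Bowtie2 2.2.4 and build ce10 were used; the sources used here do not give the counting tool, read filters or tail caller. Groups came from the labels, whose titles spell cpb-3 as cbp-3.

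Counts were tested with edgeR 4.0.16 (quasi-likelihood, TMM, filterByExpr) in R 4.3.3, and tail lengths and log odds of tailed reads (0.5 added) with limma 3.58.1. A tail needed 5 tailed reads in a library and a mean of 20, and a tailed share 10 reads and a mean of 20. Benjamini-Hochberg adjustment ran over all rows. Run 1, the RNAi libraries, embryo with N2, and control RNAi with gld-2 had a fit each. The fits were tested on simulated data. CPM used TMM scaling over all 23 libraries, and library tail medians used genes measured across the run.

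Members, 11 gene lists and tests were chosen with earlier results of these data known. Values were given per library for the 6 most abundant members, the largest and smallest changes, members against the common direction, and members called in embryos. One listed gene is not reported here. From each list up to 4 members with the smallest adjusted p were named. Alternatives were DESeq2 1.42.0, RLE scaling, no filter, tailed counts, ribosomal rows left out, merged rows added, other read minimums, weights, centring, a replicate block and leaving out each library.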

Additional observations from a re-analysis of the deposited data

Results flagged for a closer look

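The 2 rows that merge an msp gene with a neighbour were used in none of the comparisons of the family and also carried more reads in the mutants. The srb-13/msp-45 row had 211 ± 31.1 CPM in gld-2 worms, 80.3 ± 24.9 CPM in cpb-3 worms and 5.06 ± 1.98 CPM in N2 worms (SD, n = 3 each). Its log2 change against N2 was 5.41 in gld-2 worms (edgeR adjusted p = 4.2e-09) and 3.99 in cpb-3 worms (adjusted p = 5.7e-07). The aagr-2/msp-31 row had 244 ± 3.94 CPM in gld-2 worms, 147 ± 7.08 CPM in cpb-3 worms and 99.0 ± 8.03 CPM in N2 worms (SD, n = 3 each). Its log2 change against N2 was 1.32 in gld-2 worms (edgeR adjusted p = 4.8e-06) and 0.58 in cpb-3 worms (adjusted p = 0.021). Its reads come from a glucosidase gene and an msp gene together, and the msp part of them was not measured.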

How the results depend on the processing

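Expression results changed least. For gld-2 against N2, 24 to 26 members were called under DESeq2, RLE scaling, no filter, tailed counts, ribosomal rows left out, a replicate block and a filter on N2 counts alone, which was added after seeing the data, and 24 or 25 when 1 library was left out. For cpb-3 against N2 it was 25 or 26, and for gld-2 against cpb-3 21 to 23. Adding the 2 merged rows moved the log2 ratio of the family sum to 4.17 for gld-2 against N2, 2.93 for cpb-3 against N2 and -3.005 for control RNAi against gld-2, and turned that of embryo against N2 to -0.12, against 0.33 without them; ribosomal rows left out of the totals gave -3.62 for control RNAi against gld-2, against -3.30. Members called in embryo against N2 numbered 1 to 8 with 1 library left out. The msp-63 change in gld-2 against N2 ran from -0.63 to 1.07. Tail calls were less stable. For gld-2 against N2 the 12 calls became 4 with lengths centred per library, 4 with no minimum of tailed reads, 4 with a replicate block and 2 to 5 with 1 library left out; centring moved the family difference to -8.57 nt. For gld-2 against cpb-3 the 2 calls became 9 with tailed reads as weights, 1 with no minimum and 1 to 14 with 1 library left out; centring moved the family difference to -1.33 nt. For the tailed share in cpb-3 against N2, 1 member passed with a minimum of 50 reads, and 0 or 1 with 1 library left out (1 without cpb-3 replicate 1). The cause of these shifts was not tested. Same-numbered libraries of run 1 did not deviate together throughout: 4 of 9 pairs had a correlation of deviations over 0.1 (range -0.49 to 0.38). Pairs with N2 ran from -0.49 to 0.17. Between gld-2 and cpb-3 the same-numbered pairs had 0.38, 0.079 and 0.34, and differently numbered pairs -0.44 to 0.058. Those 2 groups may therefore be paired by number, which the main fit ignored. With the replicate block 24, 26 and 23 members were called in expression in the 3 comparisons of run 1. In run 2, 24 of 30 pairs were over 0.1. With 2 libraries a group, the 2 pairs of any 2 groups always share 1 value, so they do not count separately. The block called 0 members. Depth limits single members in N2 and embryos, where a member had a median of 33.5 and 14.5 tailed reads in a library.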
